A study of Mus musculus with 6 samples.

Results

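Liver handles most of the body's surplus amino acids, and 42 mouse genes of this chemistry were followed here: the enzymes and carriers of the urea cycle, enzymes that break down amino acids or pass on their nitrogen, and 3 enzymes that make serine or asparagine. A gene was read from the probe sets, groups of short probes for a transcript, that the array's annotation gives its symbol and no other. Where a gene had several, the probe set with the highest mean of log2(signal + 16) over the arrays stood for it. Of the 42 genes, 40 had such a probe set and 39 were bright enough to be tested, among 9202 genes tested on the whole array. Ass1, whose probe set carries a second symbol, and Amt were not analysed here. Psat1, a serine synthesis enzyme, was too dim to be tested, with signals of 23.2 and 58.6 after fraction 1, 13.4 and 8.5 after fraction 2 and 38.6 and 2.7 in control.

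Total liver RNA of Swiss-Webster mice, an outbred strain, was hybridised to 6 Affymetrix expression arrays, 2 for each of 3 groups. Mice of the fraction 1 group ate a hexane fraction mixed into their food at 1% over 21 days. The fraction 2 group received a methanol fraction at the same 1% and over the same 21 days. The control group ate the control diet. The series is named for Boswellia serrata, the tree whose resin is known as Indian frankincense. The labels give neither the sex nor the age of the mice, and do not say whether an array held 1 animal or a pool, so every p-value here measures only the spread between these samples. Having 2 arrays a group limits how precise each value can be.

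The urea cycle joins ammonia and the nitrogen of aspartate into urea, in hepatocytes next to the portal vein. Its nitrogen arrives through transaminases and glutamate dehydrogenase, while the carbon skeletons of amino acids are taken apart by separate pathways, many of them in mitochondria. Hormones of fasting and the amino acid supply are known to set the levels of many of these enzymes.

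Hepatocyte markers were abundant on all 6 arrays: the 6 markers with a probe set, Alb, Ttr, Apoa1, Apoh, Fgb and Ahsg, had signals of 13817.3 to 35600.6. Their summed signal was 112389 to 126353 after fraction 1, 105737 to 111685 after fraction 2 and 134105 to 153756 in control. The sum for 11 macrophage markers was 9055.6 to 9529 after fraction 1, 9856.2 to 10754.9 after fraction 2 and 10173.2 to 11283.6 in control. For 6 stellate cell and fibroblast markers it was 2985.6 to 3882.3 after fraction 1, 4182 to 5338.2 after fraction 2 and 5405.5 to 6467.9 in control. The 6 sinusoidal endothelium markers summed to 3909 to 4077 after fraction 1, 4723.1 to 5059.3 after fraction 2 and 4983 to 6560.5 in control. For 4 lymphocyte markers the sum was 485.7 to 557.6 after fraction 1, 504.1 to 542.9 after fraction 2 and 443.8 to 591.6 in control. The 4 cholangiocyte markers summed to 184 to 357.1 after fraction 1, 232.1 to 254.9 after fraction 2 and 211 to 246.3 in control. In both of these lists fraction 1 overlapped control. For 2 erythroid markers, Alas2 and the dim Hba-a1, the sum was 815.8 to 830.4 after fraction 1, 1553.6 to 2712.7 after fraction 2 and 2295.2 to 2708.9 in control. Alas2 fell after fraction 1, by 1.66 on the log2 scale (n = 2 each, adjusted p = 0.0384, limma), and was the only marker past the threshold of 0.05. By limma, its adjusted p was 0.0515 with quantile normalization and 0.074 with median centring. It was 0.0856 with no filter and 0.165 with no variance trend. With scan batch or chip lot as a block it was 0.0576 or 0.0626. It stayed under 0.05 with pseudocounts of 1 and 64, with the filter at the 60th percentile and on the compared groups alone. Its adjusted p was 0.0542 without control replicate 1, 0.0979 without control replicate 2, 0.132 without fraction 1 replicate a and 0.281 without fraction 1 replicate b, all by limma. The part of these cell types in the members' values was not tested. In bulk liver RNA, fewer cells of a type and less RNA per cell cannot be told apart. Control replicate 1 and fraction 2 replicate a were scanned in a second batch, while both fraction 1 arrays, fraction 2 replicate b and control replicate 2 were scanned in the first. Control replicate 2 stood apart in RNA quality: its 3'/5' ratio for actin was 3.87, against 2.13 to 2.64 on the other 5 arrays.

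No gene of the list passed the test in any of the 3 comparisons. The test was limma's moderated test, with Benjamini-Hochberg adjustment over all probe sets tested and a threshold of 0.05. Between fraction 1 and control, 0 of 39 members passed, against 0.739% of all genes tested. For fraction 2 against control it was 0 of 39 members, against 0.12% of all genes. Fraction 1 against fraction 2 gave 0 of 39 members and 0.0% of all genes. The smallest adjusted p was 0.141 for Gldc after fraction 1, 0.238 for Prodh after fraction 2 and 0.429 for Asns between the fractions, all by limma.

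A looser count took members at an unadjusted p under 0.05. For fraction 1 against control, 5 of 39 members were higher, against 5.79% of all genes, and 6 were lower, against 7.16% of all genes. For fraction 2 against control, 1 member was higher, against 3.31% of all genes, and 5 were lower, against 3.92% of all genes. Set against fraction 2, fraction 1 had 4 members higher, against 3.78% of all genes, and 1 lower, against 4.17% of all genes. These counts depended on single arrays. For fraction 1 against control they were 3 higher and 4 lower without fraction 1 replicate a, and 1 higher and 0 lower without fraction 1 replicate b. For fraction 2 against control, leaving out control replicate 1 gave 2 and 10, and leaving out control replicate 2 gave 0 and 5. Leaving out fraction 2 replicate a gave 0 and 2 there, and leaving out its replicate b gave 1 and 1. Between the fractions they were 2 and 1 without fraction 1 replicate a, 1 and 0 without fraction 1 replicate b, 2 and 0 without fraction 2 replicate a, and 1 and 1 without fraction 2 replicate b. Centring each array on its median gave 5 and 2 for fraction 1 and 1 and 1 for fraction 2, both against control, and 1 and 1 between the fractions. Quantile normalization gave 5 and 6, 1 and 2, and 3 and 0 in the same order. Dropping the variance trend gave 4 and 2, 0 and 1, and 1 and 0. At the next brightest probe sets, which 11 members have, all 3 comparisons gave 0 and 0. The share of all genes was not counted under these settings or with an array left out. The changes in these counts may therefore not be particular to the members.

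The median log2 fold change over the 39 members was -0.06 for fraction 1 against control, where all genes had -0.03. For fraction 2 against control it was -0.12, where all genes had -0.05. It was 0.12 for fraction 1 against fraction 2, where all genes had 0.02. Fold changes of the members ran between -0.59 and 1.22 after fraction 1 and between -0.75 and 0.78 after fraction 2, both against the same control arrays. The median standard error was 0.17 for the members and 0.24 for all genes.

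**Figure D1:**
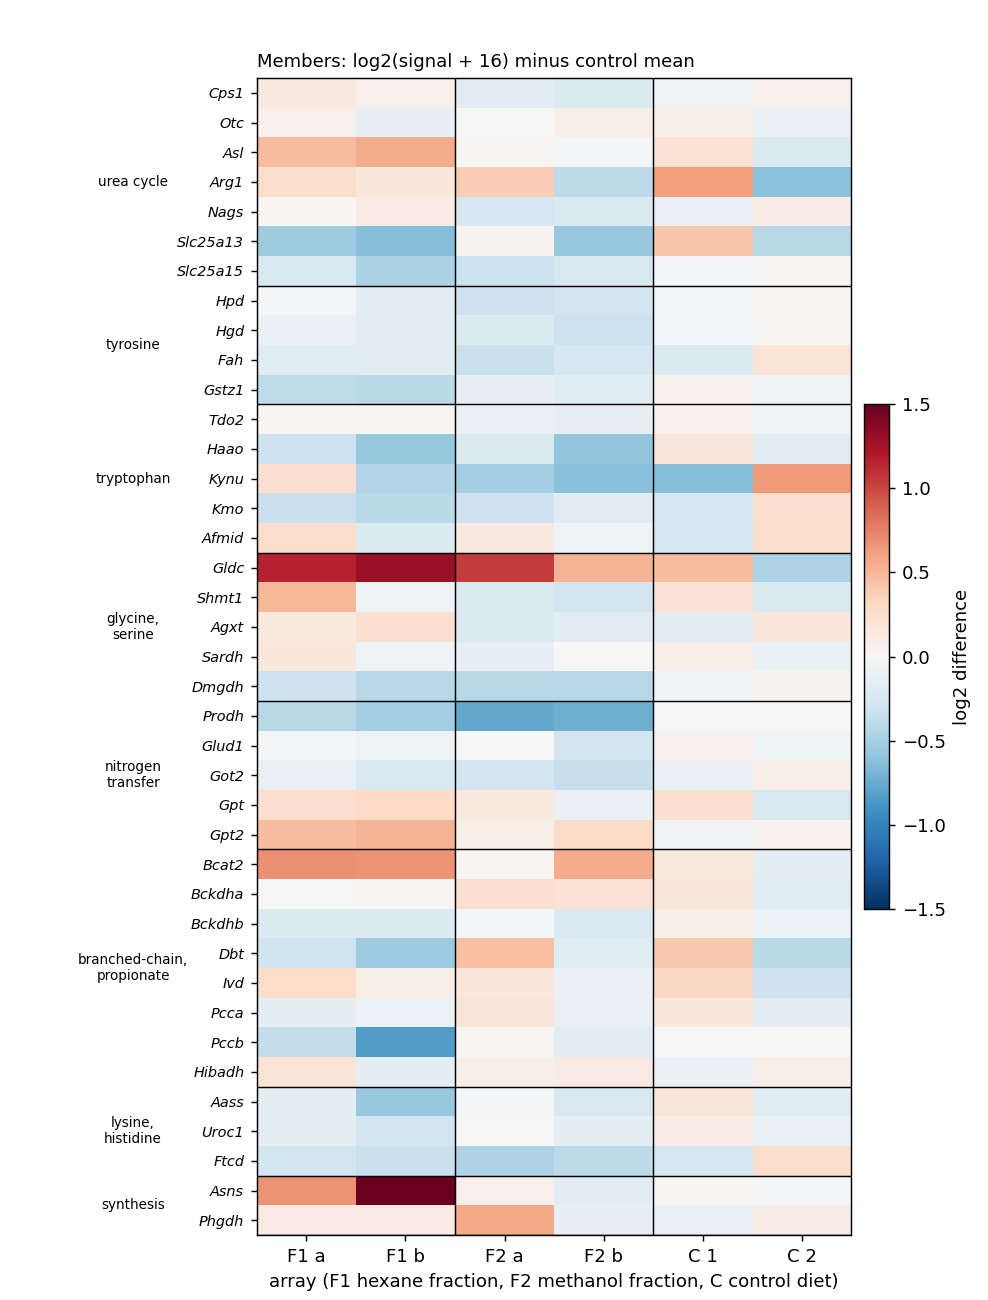
Each row is a member of the list, grouped by pathway, and each column an array; colour gives log2(signal + 16) minus the control mean, blue below and red above it. Gldc and Asns are the reddest rows under fraction 1, at 1.22 and 1.08 on average, and Prodh is the bluest row under fraction 2, at -0.75.

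In the urea cycle, argininosuccinate lyase stood higher after fraction 1 and carbamoyl phosphate synthetase stood lower after fraction 2, while ornithine transcarbamylase was close to level. Asl, the lyase that releases arginine, had signals of 9818.8 and 10465.6 after fraction 1, 7224.2 and 6973.5 after fraction 2, and 8265.8 and 6163.1 in control. Both fraction 1 arrays lay above the other 4 arrays, and fraction 2 lay within the control range of 6163.1 to 8265.8 for both of its arrays. The log2 fold change was 0.51 ± 0.16 (SE, n = 2 each) for fraction 1 against control, with an adjusted p of 0.225 by limma, and 0.51 ± 0.16 for fraction 1 against fraction 2, with an adjusted p of 0.475. Without control replicate 2 the first value was 0.29.

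Cps1, the mitochondrial enzyme that commits ammonia to the cycle, had signals of 15833.6 and 15214.7 after fraction 1, 12865.6 and 12537.8 after fraction 2, and 13741.7 and 15194.1 in control. The fraction 1 arrays were the highest and the fraction 2 arrays the lowest, although fraction 1 replicate b stood barely above control replicate 2. Fraction 1 exceeded fraction 2 by 0.29 ± 0.11 on the log2 scale (SE, n = 2 each, adjusted p = 0.574, limma). With quantile normalization the difference was 0.16. The enzyme's activator is made by Nags, N-acetylglutamate synthase, whose signals were 1116.6 and 1190.6 after fraction 1, 918 and 937.5 after fraction 2, and 1008.8 and 1189.2 in control. The 2 fractions did not overlap, and both fraction 2 arrays lay below control.

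Otc, which joins carbamoyl phosphate to ornithine, differed by -0.03 on the log2 scale between fraction 1 and control, with a 95% interval of -0.34 to 0.29. Between fraction 2 and control it differed by 0.05, with an interval of -0.26 to 0.37. Arg1, the arginase that releases urea, had signals of 9816.3 and 9094.9 after fraction 1, 10529.4 and 6183.1 after fraction 2, and 12540.8 and 5294.1 in control. Its groups overlapped, and the 2 arrays of the second scan batch were the highest of the 6. The interval of its difference between fraction 1 and control was wide, from -0.64 to 1.07 on the log2 scale.

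Both mitochondrial carriers of the cycle had lower signals after fraction 1 than in control. Slc25a15, the ornithine carrier, had signals of 5647.6 and 4744.8 after fraction 1, 5273.5 and 5588.1 after fraction 2, and 6530.4 and 6663.1 in control. All 4 arrays of the fractions lay below both control arrays. Its log2 fold change was -0.35 ± 0.14 for fraction 1 (SE, n = 2 each, adjusted p = 0.364, limma) and -0.28 ± 0.14 for fraction 2 (adjusted p = 0.748, limma). The fraction 1 value was -0.22 without fraction 1 replicate b, and the fraction 2 value was -0.17 with median centring. At its next brightest probe set the fraction 1 value was -0.19, and both fraction 1 arrays lay within the control range. The fraction 2 value there was -0.44, with both arrays below control. Slc25a13, the aspartate and glutamate carrier citrin, had signals of 1777.4 and 1652 after fraction 1, 2662.5 and 1736.2 after fraction 2, and 3451.5 and 1937.5 in control. Fraction 1 lay below control on both arrays and overlapped fraction 2, and again the second scan batch held the 2 highest arrays.

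Glycine and one-carbon genes held the largest difference of the list against control, in Gldc, while dimethylglycine dehydrogenase was lower after both fractions. Gldc, the decarboxylase of the glycine cleavage system, had signals of 2592.5 and 2855.5 after fraction 1, 2405.1 and 1652 after fraction 2, and 1597 and 837.7 in control. The 3 groups did not overlap, with fraction 1 highest and control lowest. Against control, fraction 1 was 2.33-fold higher, a log2 fold change of 1.22 ± 0.30 (SE, n = 2 each, adjusted p = 0.141, limma), and fraction 2 was 1.71-fold higher, at 0.78 ± 0.30 (adjusted p = 0.673, limma). Between the fractions the difference was 0.45, with a 95% interval of -0.25 to 1.14.

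The Gldc signal also differed between scan batches, by 0.73 ± 0.16 (second batch minus first, log2, SE). With scan batch as a block, its log2 fold change for fraction 1 against control was 1.59, with an adjusted p of 0.0124 by limma. It also passed the threshold when chip lot was the block (1.53, adjusted p = 0.0178), on the arrays of the first scan batch alone (1.68, adjusted p = 0.0367) and without control replicate 1 (1.68, adjusted p = 0.0317, limma). The last 2 of these fits set the same fraction 1 arrays against the same single control array, so they are not separate results. That array, control replicate 2, had the highest actin 3'/5' ratio, at 3.87. Its spread is taken from the groups with 2 arrays. The chip-lot fit and the first-batch fit each have 1 residual degree of freedom. Without control replicate 2 it was 0.76, and over its alternatives the adjusted p ran from 0.0124 to 0.664. For fraction 2 the value was 0.32 without control replicate 2 and 1.24 without control replicate 1, and no alternative brought it past the threshold.

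Dmgdh, which strips a methyl group from dimethylglycine, had signals of 4487.9 and 4132.5 after fraction 1, 4174.1 and 4132.5 after fraction 2, and 5412.2 and 5709.4 in control. The 4 arrays of the fractions lay together below both controls. Its log2 fold change was -0.37 ± 0.14 for fraction 1 (SE, n = 2 each, adjusted p = 0.312, limma) and -0.42 ± 0.14 for fraction 2 (adjusted p = 0.602, limma). Sardh, the next enzyme of that route, had 4790.4 and 4137.1 after fraction 1, 3966.5 and 4310.5 after fraction 2, and 4606.2 and 4024 in control, so that its groups overlapped.

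Agxt, the peroxisomal enzyme that turns glyoxylate into glycine, had signals of 7284.4 and 7736.6 after fraction 1, 5702.9 and 5834.1 after fraction 2, and 5859 and 7360.2 in control. The fractions did not overlap, and both control arrays lay above fraction 2, 1 of them also above fraction 1 replicate a. The log2 difference between the fractions was 0.38 ± 0.15 (SE, n = 2 each, adjusted p = 0.585, limma). Shmt1, the cytosolic enzyme that interconverts serine and glycine, had 0.46 ± 0.23 between the fractions at its brightest probe set (adjusted p = 0.642, limma). Its 3 other probe sets stood the other way, at -0.32, -0.13 and -0.11, so the probe sets of Shmt1 disagree. Even at the brightest probe set, the Shmt1 value was 0.18 without fraction 1 replicate a and 0.75 without fraction 1 replicate b.

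**Figure D2:**
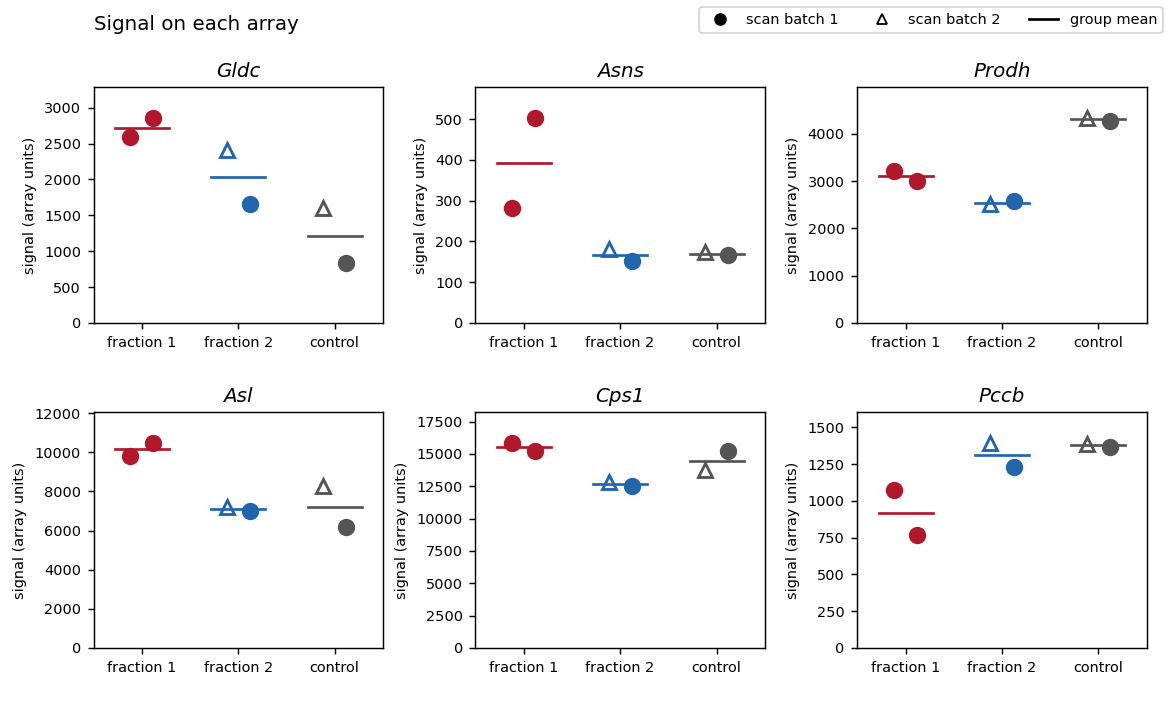
Signals in array units, on axes that start at 0, are shown for 6 members on every array; circles are the first scan batch, open triangles the second, and lines the group means. Gldc, Asns and Asl are highest on both fraction 1 arrays, and Prodh is highest on both control arrays. The share of all genes with such patterns was not counted.

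Among the genes that move nitrogen, proline dehydrogenase was lower after both fractions, and a mitochondrial alanine transaminase was higher after fraction 1. Prodh, the first enzyme of proline breakdown, had signals of 3222.5 and 3008.1 after fraction 1, 2512.9 and 2577.3 after fraction 2, and 4334.8 and 4275.8 in control. The 3 groups did not overlap and the arrays within each group lay close together. Its log2 fold change was -0.75 ± 0.14 for fraction 2 against control (SE, n = 2 each, adjusted p = 0.238, limma), which puts control 1.69-fold above fraction 2. For fraction 1 it was -0.47 ± 0.14 (adjusted p = 0.218, limma), and fraction 1 exceeded fraction 2 by 0.29 ± 0.14 (adjusted p = 0.642, limma). Over the alternatives the fraction 2 value stayed between -0.80 and -0.64, and that of fraction 1 between -0.51 and -0.42.

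Gpt2, the mitochondrial alanine transaminase, had signals of 2596.3 and 2683.4 after fraction 1, 1992.2 and 2299.3 after fraction 2, and 1810.9 and 1943.7 in control. Its groups did not overlap, with fraction 1 highest. The log2 fold change was 0.49 ± 0.16 for fraction 1 against control (SE, n = 2 each, adjusted p = 0.251, limma) and 0.30 ± 0.16 for fraction 1 against fraction 2 (adjusted p = 0.656, limma). At its other probe sets the value for fraction 1 against control was 0.36 and 0.13. Both fraction 1 arrays lay within the control range at each of them. At its next brightest probe set the difference between the fractions was -0.14, so its direction there depends on the probe set. Without fraction 2 replicate a it was 0.20. Gpt, the cytosolic form, differed by 0.28 between fraction 1 and control, with a 95% interval of -0.15 to 0.70.

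Got2, the mitochondrial aspartate transaminase, had signals of 12173.2 and 11144.3 after fraction 1, 10827.7 and 10413.4 after fraction 2, and 12357.1 and 14086.3 in control. Its groups did not overlap, with fraction 2 lowest, and the log2 fold change of fraction 2 against control was -0.31 ± 0.12 (SE, n = 2 each, adjusted p = 0.673, limma). With quantile normalization that value was -0.15, with median centring -0.20 and at the next brightest probe set -0.10. Glud1, glutamate dehydrogenase, which releases ammonia in mitochondria, had signals of 8332.3 and 8067 after fraction 1, 8508 and 7018.9 after fraction 2, and 8916 and 8163.9 in control, with overlapping groups. In fraction 1 against fraction 2, 4860 of 9202 genes were above 0. All 5 genes of this branch were above 0 there, at their brightest probe sets. The 3 with a next tested probe set were below 0 there, with Got2 at -0.52, Gpt2 at -0.14 and Glud1 at -0.014. Quantile normalization left 3 of the 5 above 0, and leaving out fraction 2 replicate b left 4.

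The 4 tyrosine genes were below control after both fractions, beside 4938 of 9202 genes after fraction 1 and 5236 after fraction 2. With quantile normalization 3 of the 4 were below it in each comparison, and without control replicate 2 it was 3 of 4 after fraction 1. Hpd, whose product makes homogentisate, had signals of 20104.3 and 18235.1 after fraction 1, 16450.9 and 16681 after fraction 2, and 20039.5 and 20844.4 in control. Both fraction 2 arrays were below the other 4 arrays, and fraction 1 overlapped control. The log2 fold change of fraction 2 against control was -0.30 ± 0.10 (SE, n = 2 each, adjusted p = 0.62, limma), and 0.01 after quantile normalization, where its direction was the opposite. Fraction 1 exceeded fraction 2 by 0.21 ± 0.10 (adjusted p = 0.642, limma). That difference was 0.013 after quantile normalization, 0.12 with median centring and 0.14 without fraction 1 replicate a.

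Hgd, which opens the ring of homogentisate, had signals of 9352.1 and 8904.7 after fraction 1, 8676.4 and 8029 after fraction 2, and 9906.1 and 10130.9 in control. Its groups did not overlap, and fraction 2 was lower than control by a log2 fold change of -0.26 ± 0.12 (SE, n = 2 each, adjusted p = 0.734, limma). With quantile normalization and with median centring that value was -0.15. Gstz1, the isomerase of the next step, was lowest after fraction 1, with 3487.8 and 3424.6 there, 4177.3 and 4016.4 after fraction 2, and 4717.2 and 4368.6 in control. Its groups did not overlap, and fraction 1 differed from control by -0.39 ± 0.14 (adjusted p = 0.286, limma). Fah, which ends the pathway and is lacking in hereditary tyrosinaemia, differed by -0.30 ± 0.15 between fraction 2 and control (adjusted p = 0.748, limma). Without control replicate 2, that Fah value was -0.09.

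The hepatocyte markers also stood below control. All 6 markers were below 0 in both comparisons with control. Their median was -0.27 after fraction 1 and -0.39 after fraction 2, where all genes had -0.03 and -0.05. At an unadjusted p under 0.05, 2 of 6 were lower after fraction 1, against 7.16% of all genes. After fraction 2 it was 6 of 6, against 3.92% of all genes. Their smallest adjusted p was 0.268 after fraction 1 and 0.347 after fraction 2, by limma. Their values under other normalizations are not given here. Their part in the values of the tyrosine genes was not tested.

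**Figure D3:**
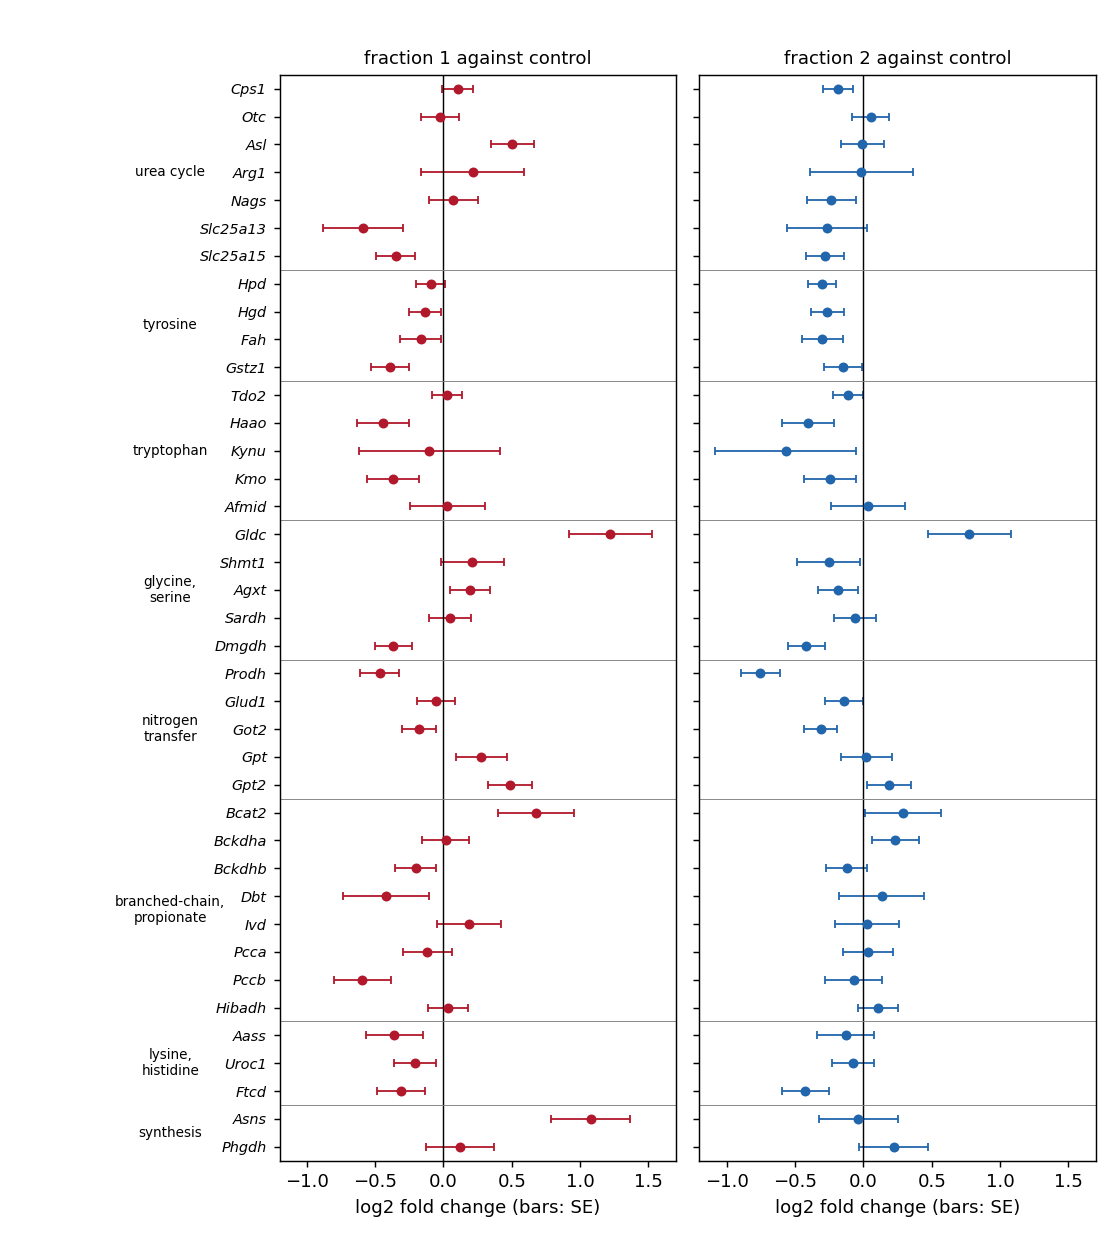
Points give the log2 fold change of each tested member against control, for fraction 1 on the left and fraction 2 on the right, and bars give its standard error. The 4 tyrosine genes are left of 0 in both panels, Gldc is right of 0 in both, and Asns lies at 1.08 under fraction 1 and at -0.04 under fraction 2.

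In the tryptophan branch, the first dioxygenase was close to control after both fractions, while Haao and Kmo stood below it. Tdo2, the liver enzyme that opens the ring of tryptophan, differed by 0.03 after fraction 1, with a 95% interval of -0.23 to 0.28. After fraction 2 it differed by -0.11, with an interval of -0.37 to 0.14. Its next probe set had 4661.1 and 4972.4 after fraction 1, 4647.4 and 4843.2 after fraction 2, and 4463.1 and 4188.2 in control. There both fractions lay above control, so the direction for fraction 2 depends on the probe set. Haao, which leads the route towards quinolinate and NAD, had signals of 5398 and 4495.5 after fraction 1, 5772.1 and 4426 after fraction 2, and 7513.5 and 5965.3 in control. All 4 arrays of the fractions lay below both control arrays. Its log2 fold change was -0.40 ± 0.19 for fraction 2 against control (SE, n = 2 each, adjusted p = 0.743, limma). That value was -0.24 without control replicate 1 and -0.21 without fraction 2 replicate b. Kmo, the hydroxylase of kynurenine, had signals of 2932.7 and 2785.2 after fraction 1, 2969.3 and 3277.8 after fraction 2, and 3109.1 and 4394.8 in control. Fraction 1 was below both control arrays, while fraction 2 overlapped control. Kynu, the kynureninase, was uneven within groups: control replicate 1 had 60.5 and control replicate 2 had 169.2.

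Of the 8 branched-chain and propionate genes, 4 stood above and 4 below control after fraction 1, and 6 above and 2 below it after fraction 2. Among 9202 genes, 4264 were above control after fraction 1 and 3966 after fraction 2. Pccb, the beta subunit of propionyl-CoA carboxylase, had signals of 1072.1 and 766 after fraction 1, 1392.5 and 1231.4 after fraction 2, and 1386.4 and 1366.6 in control. Both fraction 1 arrays were below the other 4, which overlapped. The log2 fold change was -0.59 ± 0.21 for fraction 1 against control (SE, n = 2 each, adjusted p = 0.276, limma) and -0.52 ± 0.21 for fraction 1 against fraction 2 (adjusted p = 0.591, limma). Without fraction 1 replicate b these values were -0.36 and -0.28. Pcca, the alpha subunit of the same enzyme, differed by -0.12 between fraction 1 and control, with a 95% interval of -0.53 to 0.29.

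Bcat2, the mitochondrial branched-chain transaminase, had low signals of 214.7 and 212 after fraction 1, 130.1 and 194 after fraction 2, and 142.2 and 113.9 in control. Both fraction 1 arrays were highest, and fraction 2 overlapped control. Its log2 fold change was 0.68 ± 0.28 for fraction 1 against control (SE, n = 2 each, adjusted p = 0.368, limma). The 3 subunit genes of the branched-chain ketoacid dehydrogenase differed among themselves. Bckdha had signals of 2434.4 and 2495 after fraction 1, 2885.7 and 2844 after fraction 2, and 2769.6 and 2143 in control, so that fraction 1 lay within the control range. Bckdhb had 3763.3 and 3737.8 after fraction 1, 4282.4 and 3676 after fraction 2, and 4582.8 and 4078.4 in control, with fraction 1 below both control arrays. Dbt, which makes the transacylase core, had signals of 430.8 and 361.7 after fraction 1, 734.9 and 468.9 after fraction 2, and 708.9 and 401.2 in control. The 2 fractions did not overlap, with a log2 difference of -0.55 ± 0.31 (SE, n = 2 each, adjusted p = 0.67, limma), which was -0.20 with scan batch as a block and -0.24 without fraction 2 replicate a. Ivd and Hibadh, of leucine and valine breakdown, had overlapping groups in all 3 comparisons.

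The 3 lysine and histidine genes were below control after both fractions, beside 4938 of 9202 genes after fraction 1 and 5236 after fraction 2. After fraction 2 only 1 of the 3 was below it without control replicate 1, and 2 of the 3 were with median centring. Ftcd, a bifunctional enzyme that takes the one-carbon unit from histidine breakdown onto folate, had signals of 8965.4 and 8681.3 after fraction 1, 7942.1 and 8346.1 after fraction 2, and 9103.3 and 13142.2 in control. Its groups did not overlap, but the 2 control arrays lay far apart. Fraction 2 differed from control by -0.43 ± 0.17 on the log2 scale (SE, n = 2 each, adjusted p = 0.677, limma), and by -0.16 without control replicate 2. Aass, which begins lysine breakdown, had signals of 2534 and 1875.8 after fraction 1, 2763.3 and 2372.5 after fraction 2, and 3176.8 and 2468.3 in control. Uroc1, the urocanase of the histidine route, had 4000.6 and 3624.3 after fraction 1, 4379.6 and 3983.1 after fraction 2, and 4767.7 and 4068.3 in control. The groups overlapped for Aass, while for Uroc1 both fraction 1 arrays lay below control.

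On the synthesis side, asparagine synthetase was higher after fraction 1 than in either other group. Asns, which makes asparagine from aspartate and is known to be induced when amino acids run short, had signals of 281.4 and 502.5 after fraction 1, 181 and 151.3 after fraction 2, and 173.4 and 167 in control. Both fraction 1 arrays exceeded the other 4, and replicate b far more than replicate a. The log2 fold change was 1.08 ± 0.29 for fraction 1 against control (SE, n = 2 each, adjusted p = 0.163, limma) and 1.11 ± 0.29 for fraction 1 against fraction 2 (adjusted p = 0.429, limma). Without fraction 1 replicate b these values were 0.68 and 0.71, and without fraction 1 replicate a they were 1.48 and 1.51. Between fraction 2 and control the difference was -0.04, with a 95% interval of -0.70 to 0.63. A second Asns probe set, too dim to be tested, had signals of 52.7 and 79 after fraction 1, 20.7 and 35.9 after fraction 2, and 23.7 and 31.3 in control. There too, both fraction 1 arrays were above the other 4.

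The promoter of Asns is known for an amino acid response element, a composite site bound by ATF4 with C/EBP partners, so the stretch that holds such letters is shown here. RefSeq places it on the minus strand of mouse build GRCm38.p6, at chr6:7693210-7693309, the 100 bases before the gene's start, written 5′ to 3′ with a match to the motif TGATGNAA in capitals.
Asns promoter: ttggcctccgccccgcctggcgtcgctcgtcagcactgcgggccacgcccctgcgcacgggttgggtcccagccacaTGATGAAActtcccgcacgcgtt
The match ran from 23 to 16 bases before the start and was the only one, with both strands searched, in the window of 250 bases before to 50 bases after it. Only 36 members had such a window, with 42 windows among them. Of these 42, the Asns window alone held the motif, which is 2.38%, while 3.97% of 32851 windows of all genes held it. These letters describe the sequence, and no binding was measured. Phgdh, which begins serine synthesis, differed by 0.12 between fraction 1 and control, with a 95% interval of -0.45 to 0.69.

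The spread between arrays of a group was uneven. The median difference between replicates over the members was 0.10 on the log2 scale after fraction 1, 0.12 after fraction 2 and 0.23 in control. Differences above 0.5 were found for 3 members after fraction 1, 6 after fraction 2 and 8 in control. The scan batches ran across these pairs. For 9 of 39 members both arrays of the second batch were above all 4 of the first, against 10.8% of all genes, and for 0 of 39 they were below, against 14.3% of all genes. The 9 were Arg1, Slc25a13, Glud1, Bckdhb, Dbt, Pcca, Pccb, Aass and Uroc1. Within the 2 groups that span the batches, the second batch minus the first was positive in both for 19 of 39 members, negative in both for 9 and of opposite sign for 11. With scan batch as a block, 6 of 39 members were higher at an unadjusted p under 0.05 for fraction 1 against control, against 7.01% of all genes, and 7 were lower, against 8.76%. For fraction 2 against control, 1 was higher, against 4.99% of all genes, and 8 were lower, against 6.0%. Between the fractions, 6 were higher in fraction 1, against 3.75% of all genes, and 0 lower, against 4.6%. The first batch alone holds 1 control and 1 fraction 2 array, and each is assumed to vary like fraction 1. Counts for fraction 2 against control are therefore not given for this batch, though its values enter the ranges over the alternatives. On its arrays, 8 members were higher for fraction 1 against control, against 8.29% of all genes, and 5 lower, against 9.53%. Against the fraction 2 array, 7 were higher in fraction 1, against 4.88% of all genes, and 0 lower, against 4.15%.

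**Figure D4:**
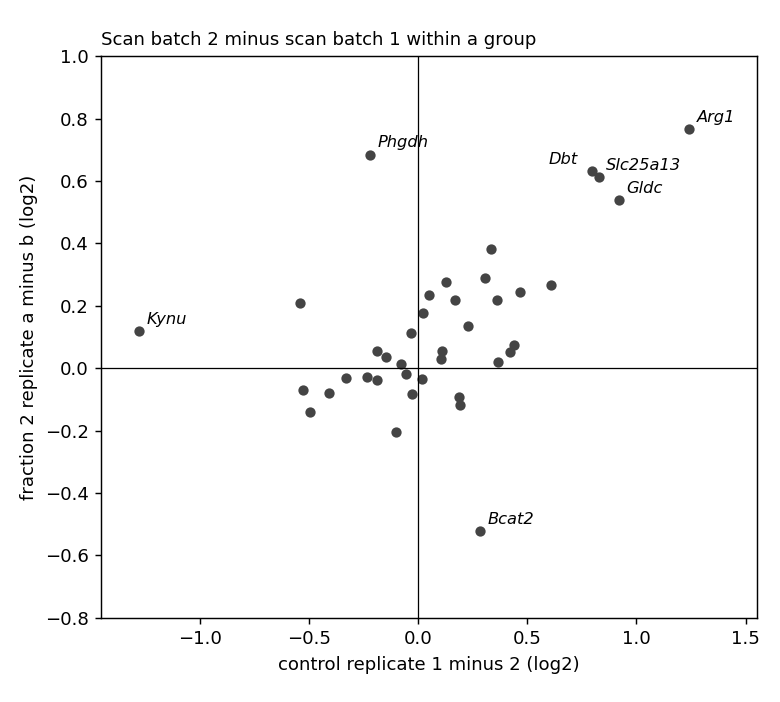
Each point is a tested member, with the log2 difference between the control replicates (second scan batch minus first) across and that between the fraction 2 replicates (second minus first) upward. Arg1 lies at 1.24 and 0.77, Slc25a13, Dbt and Gldc lie near it, and 19 points are in the upper right against 9 in the lower left.

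Further genes of these pathways gave 1 call among the 39 tested of 41 with a probe set. It was for fraction 1 against control, where 0.739% of all genes passed. Hao1, the peroxisomal oxidase that makes glyoxylate from glycolate, had signals of 1156.3 and 862.5 after fraction 1, 2518 and 1624.8 after fraction 2, and 3067.9 and 2521 in control. Both fraction 1 arrays were below the other 4, and fraction 2 did not overlap control. Hao1 fell after fraction 1, by 1.46 ± 0.25 on the log2 scale against control (SE, n = 2 each, adjusted p = 0.0498, limma), next to the threshold. Of 17 alternatives, 3 kept the call and 14 lost it, while the log2 fold change stayed between -1.67 and -1.14. The call was lost with quantile normalization (adjusted p = 0.0591), median centring (0.118), a pseudocount of 1 (0.0505), no variance trend (0.189), no filter (0.097), scan batch as a block (0.0519), the first batch alone (0.0883) and the compared groups alone (0.0546), all by limma. It was also lost without any 1 of the 6 arrays: the adjusted p was 0.0907 or 0.0778 without control replicate 1 or 2, 0.106 or 0.365 without fraction 1 replicate a or b, and 0.0558 or 0.057 without fraction 2 replicate a or b. At an unadjusted p under 0.05, 3 of the 39 were higher and 5 lower for fraction 1 against control, 2 and 3 for fraction 2 against control, and 2 and 2 for fraction 1 against fraction 2. Among all genes the shares at that p were 5.79% and 7.16% after fraction 1, 3.31% and 3.92% after fraction 2, and 3.78% and 4.17% where fraction 1 was set against fraction 2.

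Named after their values were seen, the 3 higher genes after fraction 1 were Oat, Shmt2 and Slc38a4, and the 5 lower ones were Hao1, Aadat, Amdhd1, Slc25a22 and Slc38a3. Oat, the ornithine aminotransferase, had 7857.2 and 7729.7 after fraction 1, 6055.8 and 5532.5 after fraction 2, and 5402.2 and 3955.3 in control. Aadat, the aminoadipate aminotransferase of lysine and kynurenine breakdown, had 1081.9 and 947.8 after fraction 1, 1389.3 and 1215.2 after fraction 2, and 2097.9 and 1988.9 in control. The groups did not overlap for either gene. The amino acid transporters Slc38a3 and Slc38a4 stood in opposite directions. Slc38a3 had 13411.9 and 12252.3 after fraction 1, 11558.1 and 12827.3 after fraction 2, and 16239.7 and 16753.8 in control, with both fractions below control. Slc38a4 had 10448 and 9758.9 after fraction 1, 9041.4 and 9314.7 after fraction 2, and 7039.7 and 7755.1 in control, with both fractions above control.

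Genes known to respond to amino acid shortage were followed beside Asns. Of 15 tested, 0 passed the adjusted threshold in limma in any comparison. At an unadjusted p under 0.05, 4 were higher and 1 lower for fraction 1 against control, 0 and 1 for fraction 2 against control, and 2 and 0 for fraction 1 against fraction 2. All genes had 5.79% higher and 7.16% lower, 3.31% and 3.92%, and 3.78% and 4.17% in the same order. Their median log2 fold change was 0.30 after fraction 1 and 0.09 after fraction 2, and 0.23 for fraction 1 against fraction 2. Named after their values were seen, the 4 were Cebpb, Atf5, Eif4ebp1 and Atf4, and the lower one was Slc7a5. Atf4, the factor at the centre of this response, had 3152 and 2580.9 after fraction 1, 2226.7 and 2325 after fraction 2, and 2346.5 and 1929.6 in control. Cebpb, a C/EBP factor, had 2749.2 and 3138.9 after fraction 1, 1583.4 and 1680.9 after fraction 2, and 1553.2 and 955.2 in control. Both genes were highest on the 2 fraction 1 arrays, while Slc7a5, a transporter of large neutral amino acids, stood lower after both fractions.

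Of 11 regulators of amino acid breakdown, 0 passed the adjusted threshold in limma in any comparison. At an unadjusted p under 0.05, 1 was higher and 1 lower for fraction 1 against control, and 2 and 2 for fraction 1 against fraction 2, while fraction 2 against control had 0 and 0. Among all genes, 5.79% were higher and 7.16% lower after fraction 1, and 3.78% and 4.17% when fraction 1 was set against fraction 2. Named after their values were seen, the pair for fraction 1 against control was Ppargc1a, a coactivator of the fasting response, which was higher, and Nr3c1, the glucocorticoid receptor, which was lower. Between the fractions, Ppargc1a and Klf15 were the 2 higher ones and Nr3c1 and Ppara the 2 lower ones. Klf15, a factor known to raise amino acid breakdown in fasting, had 2494.3 and 2290.7 after fraction 1, 1532.5 and 1879.2 after fraction 2, and 2093.9 and 2170.1 in control, so that control lay between the fractions.

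**Figure D5:**
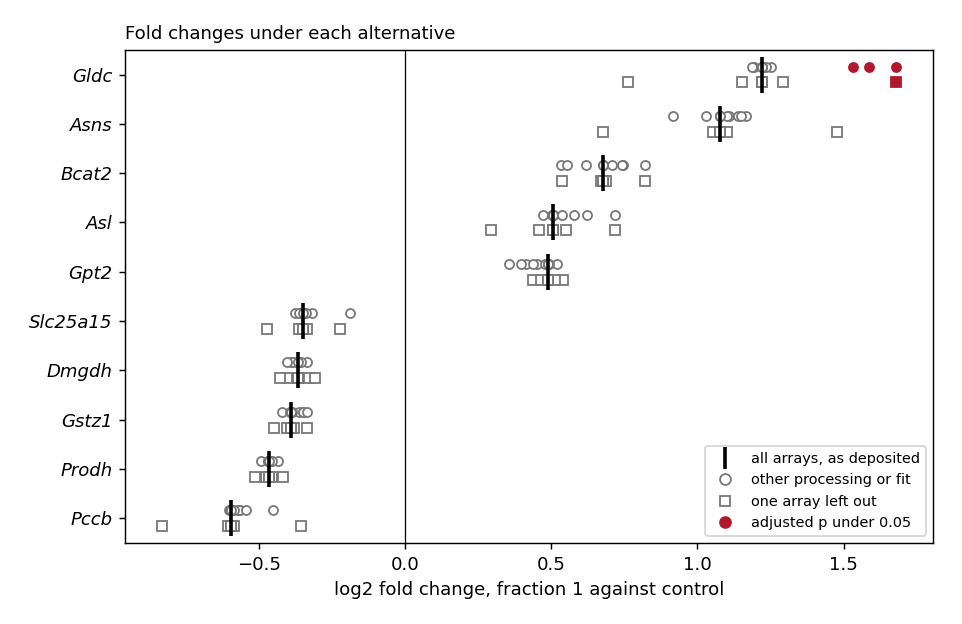
For the 10 members named for fraction 1 against control, black bars give the log2 fold change from all arrays, circles those under other processing or fits, and squares those with an array left out. Filled red marks, an adjusted p under 0.05, occur for Gldc alone, at 1.53 to 1.68, and none of the 10 genes changes sign.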

How the data were processed

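Liver RNA was measured on 6 arrays. Each probe set has 1 deposited signal intensity per array, on a linear scale. How the authors computed it is not given in the sources used here. The authors' deposited experiment files, whose values are instrument settings, gave the scan batch and chip lot. The mean of each array without its lowest and highest 2% was equal within 0.00589%, and values were used as deposited.

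The table has 22690 probe sets, and the 64 controls among them were dropped. By the array annotation, 20393 had 1 symbol, 691 several and 1606 none; 20364 of the first matched a RefSeq gene table and 0 changed. Testing required 2 or more of the 6 arrays to reach that array's 40th percentile, and 14755 probe sets did.

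Values were log2(signal + 16), fitted over all 6 arrays with limma 3.58.1 (lmFit, eBayes with a variance trend) in R 4.3.3, with 3 residual and 5.43 prior degrees of freedom. P-values are two-sided and adjusted by Benjamini-Hochberg over tested probe sets, with a threshold of 0.05, and the procedure was tested on simulated data. Fold changes are on the log2(signal + 16) scale, which understates those of dim genes. The genes named by rule were members past the threshold, the 10 members with the smallest p in each comparison, and further pathway genes past the threshold; other members are given by signals, intervals or ranges. The 9202 genes are those whose brightest probe set was tested. Between diet groups, the share of all genes without overlap was counted only for the Cps1 pattern. Elsewhere a lack of overlap only describes the arrays. The members and lists were chosen with earlier results of these data known.

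The alternatives were quantile normalization, median centring, pseudocounts of 1 and 64, the filter dropped or raised to the 60th percentile, the variance trend dropped, scan batch or chip lot as a block, the first scan batch alone, the compared groups alone, each array left out in turn, the next brightest probe set, and, between the fractions, a block for the replicate letter. Python 3.11.15 with matplotlib 3.10.9 drew the figures.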

Additional observations from a re-analysis of the deposited data

Results flagged for a closer look

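Cps1 was singled out because its arrays moved in opposite directions under the 2 fractions: both fraction 1 arrays lay above, and both fraction 2 arrays below, the 2 control arrays. Its log2 fold change against control was 0.10 after fraction 1 and -0.19 after fraction 2. That pattern of arrays is not itself a test, and the fit of fraction 1 against fraction 2 gave an adjusted p of 0.574 by limma. The pattern was found for 1 of 39 members, or 2.56%, and for 225 of 9202 genes, or 2.45%.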

How the results depend on the processing

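Over 31 named values and 542 values under an alternative, 539 kept their direction and 3 reversed. The reversed ones were Hpd for fraction 2 against control, at 0.013 with quantile normalization, and, at the next brightest probe set, Shmt1 at -0.32 and Gpt2 at -0.14 for fraction 1 against fraction 2. The 539 include fits that leave a fold change as it was and so could not reverse it. These are the filter settings, the dropped variance trend, the compared groups alone, and an array left out of the group not compared. Members past the threshold for fraction 1 against control numbered 1, Gldc, with scan batch as a block, with chip lot as a block or in the first scan batch alone, where control has 1 array, and 0 to 1 with an array left out, where the 1 was without control replicate 1. For that comparison, the first scan batch alone and the fit without control replicate 1 set the same arrays against each other. The members' median for fraction 1 against control was -0.13 at the next brightest probe sets, which 11 members have, and -0.14 to -0.0012 with an array left out. For fraction 2 against control it was -0.0082 with median centring and -0.0089 at the next brightest probe sets, and -0.18 to -0.014 with an array left out. For fraction 1 against fraction 2 it was 0.00089 with quantile normalization, 0.031 with median centring and -0.14 at the next brightest probe sets. Of 434 branch medians under an alternative, 65 moved by more than the spread between replicates. The causes were not tested. A paired analysis with the replicate letters as a replicate block between the fractions gave 0 members past the threshold and a median of 0.12, with 7 members higher and 2 lower at an unadjusted p under 0.05, against 7.11% and 7.04% of all genes, and the labels do not say that the letters pair the arrays. A group with an array left out has 1 array, assumed to vary like the other groups. With 2 arrays a group, an adjusted p above the threshold does not show that a gene was level. No detection calls were used, so a signal near the filter may be background.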
